A study of Mus musculus with 10 samples.

Results

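The Kruppel-like factors described here are 10 zinc finger transcription factor genes, Klf2, Klf3, Klf4, Klf6, Klf7, Klf9, Klf10, Klf11, Klf13 and Klf16, out of 18194 gene symbols that had a probe set of their own on the arrays. The genes were taken by name, with earlier results of these data known. Each is represented by the probe set assigned to its symbol alone that had the highest mean signal over the 10 arrays, and all 10 genes passed the filter on low values. Germinal centre (GC) B cells are the antigen-activated B cells that divide and mutate their receptors in the follicle. In them 8 of these 10 genes lay below naive B cells on all arrays, where 18.5% of all tested genes did. The 10 are not the whole family: of 7 further Kruppel-like factor genes 5 were tested. Of these 5, 0 were lower and 1 was higher in GC cells, where 21.0% and 20.5% of all tested genes were. Klf3 and Klf2 fell the most, to 4.92% and 7.22% of the naive signal with their brightest probe sets, while Klf10 did not fall. The size for Klf3 depends on the probe set: the mean over its 7 gave a log2 difference of −2.80 in place of −4.35. That mean takes in probe sets with some signals below log2 4. Klf2 has 1 probe set (−3.79), so the order of Klf2 and Klf3 depends on the measure used for Klf3.

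The study hybridized RNA of sorted splenic B cells to Affymetrix Mouse 430 2.0 arrays in 3 groups. Naive B cells (n = 4) came from Balb/c mice that had not been immunized, and no transgene is named for them. The GC cells came from mice on the Balb/c background whose own heavy chain joining segments (JH) were deleted and which carried an immunoglobulin heavy chain transgene, VH186.2 for B1-8 (n = 3) or V23 (n = 3). Both lines received 50 µg of NP-CGG, the hapten NP coupled to chicken gamma globulin, in alum, and λ+ PNA+ B220+ cells were sorted from the spleen 14 days later. All cells were kept cold in buffers with sodium azide. By background knowledge, B1-8 paired with a λ light chain has the higher affinity for NP and V23 the lower. Immunization, the transgene, the JH deletion and the sort differ together between GC and naive cells, so they cannot be told apart, and the naive stain is not given in the labels. Nothing says that replicates are separate animals, so each p-value reflects sample-to-sample spread that may be technical.

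Kruppel-like factors share a carboxy-terminal zinc finger domain that binds CACCC and GC-rich elements in promoters and enhancers, and they differ in the parts that recruit coactivators or corepressors. In lymphocytes Klf2 is known as a factor of quiescence and recirculation: it is induced downstream of FOXO1 and of the ERK5-MEF2 cascade, it activates the egress receptor gene S1pr1, and antigen receptor signals shut it off. Klf3, Klf8 and Klf12 recruit the corepressor CtBP, Klf9, Klf10, Klf11, Klf13 and Klf16 recruit SIN3A with histone deacetylases, and Klf4, Klf6 and Klf7 belong with Klf2 to the members that mostly activate transcription.

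The promoters of Klf2 and Klf3, the genes with the largest falls, are shown because CACCC is the core that the factors themselves bind and because MEF2 acts on Klf2. They are the 250 bases before the RefSeq transcription start in the C57BL/6J reference (GRCm38.p6), read 5′ to 3′ on the strand of the gene, at chr8:72318812-72319061 (plus strand) for Klf2 and chr5:64803271-64803520 (plus strand) for Klf3. Capitals mark each CACCC or its reverse complement GGGTG, and each CTANNNNTAG (CTA, any 4 bases, TAG), the frame of a MEF2-type element, which is its own reverse complement.
Klf2: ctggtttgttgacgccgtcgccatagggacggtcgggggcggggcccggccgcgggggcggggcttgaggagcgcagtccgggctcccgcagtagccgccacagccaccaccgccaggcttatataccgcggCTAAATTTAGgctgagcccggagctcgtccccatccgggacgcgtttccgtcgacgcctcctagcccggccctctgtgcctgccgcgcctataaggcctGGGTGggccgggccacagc
Klf3: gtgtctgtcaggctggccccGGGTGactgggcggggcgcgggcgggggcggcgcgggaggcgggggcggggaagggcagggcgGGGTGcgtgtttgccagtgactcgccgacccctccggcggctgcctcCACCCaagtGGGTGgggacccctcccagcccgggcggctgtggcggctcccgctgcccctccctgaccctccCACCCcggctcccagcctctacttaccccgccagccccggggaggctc
The Klf2 window held 1 CACCC match, which starts 19 bases before the start site, and 1 CTANNNNTAG match, which reads CTAAATTTAG and starts 118 bases before it. Klf3 had 5 CACCC matches and no CTANNNNTAG match. RefSeq windows matched 8 of the 10 genes by symbol, and 5 of these 8 held CACCC on either strand, against 52% of 32851 mouse promoter windows of the same length. CTANNNNTAG occurred in 1 of the 8, Klf2, against 3.20% of all windows. The GC box GGGCGG or CCGCCC occurred in 7 of the 8 against 32.7% of all windows, with 6 matches in Klf3 and 2 in Klf2; 1 CACCC match in Klf3 and the 1 in Klf13 overlap a GC box. The forkhead core TGTTTA or TAAACA occurred in Klf4 and Klf9 against 12% of all windows. These motifs were picked after the sequences were read, and a match describes letters only.

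Signals were analysed on the deposited log2 scale, on which a difference of 1 is 2-fold, and fitted with limma across all 17204 genes tested; fold changes are given ± SE, group levels ± SD. The 6 measured B cell markers had a mean log2 signal between 12.81 and 13.60 on every array. Of these markers 2 fell in GC cells, where 21.0% of all tested genes fell: Pax5 (−1.32 ± 0.21, limma adjusted p = 0.00109) and Cd79a (−0.40 ± 0.13, adjusted p = 0.0318). All 5 measured GC markers were higher in GC cells (20.5% of all tested genes were), with means of 11.91 to 12.06 there. Naive replicates 2 and 4 had higher GC marker means (9.80 and 9.01) than naive replicates 1 and 3 (8.08 and 8.24). Of other cell types, all 10 measured neutrophil markers were higher in GC cells (against the same 20.5%). Naive replicate 4 had the highest naive mean for them (9.32 against 7.47 to 7.89). Markers of further cell types are given at the end of the results. RNA quality moved with the groups too, with an Actb 3′ minus 5′ log2 difference of 1.46 ± 0.17 in naive, 0.98 ± 0.20 in GC B1-8 and 0.78 ± 0.08 in GC V23 samples; its part in the results below was not tested. In sorted bulk cells, fewer cells of a type and less RNA per cell cannot be told apart.

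Against naive cells, 8 of the 10 genes fell in GC B1-8 and 0 rose, where 17.3% of all tested genes fell, 16.4% rose and 33.7% changed either way. In GC V23, 9 fell and 0 rose, where 19.7% of all genes fell, 18.2% rose and 37.9% changed. For the mean of both GC groups 9 of 10 fell, where 21.0% of all genes fell, 20.5% rose and 41.5% changed. With limma, 0 members rose in these comparisons at an unadjusted p under 0.05 too. Klf2, Klf3, Klf4, Klf6, Klf7, Klf9, Klf11 and Klf13 fell in each line (15.5% of all genes did), and these 8 are also the members whose 6 GC arrays all lay below the 4 naive arrays (18.5% of all genes). A fall of at least 2-fold was found for 4 members (8.17% of all genes) and one of at least 8-fold for 2 members (0.761% of all genes), of which Klf3 was under 8-fold with the mean of its probe sets (−2.80). The median log2 difference of the 10 genes was −0.91 and that of all tested genes 0.06; centring each array on its median moved the latter to 0.16 and turned no member's direction in the mean of both GC groups.

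**Figure D1:**
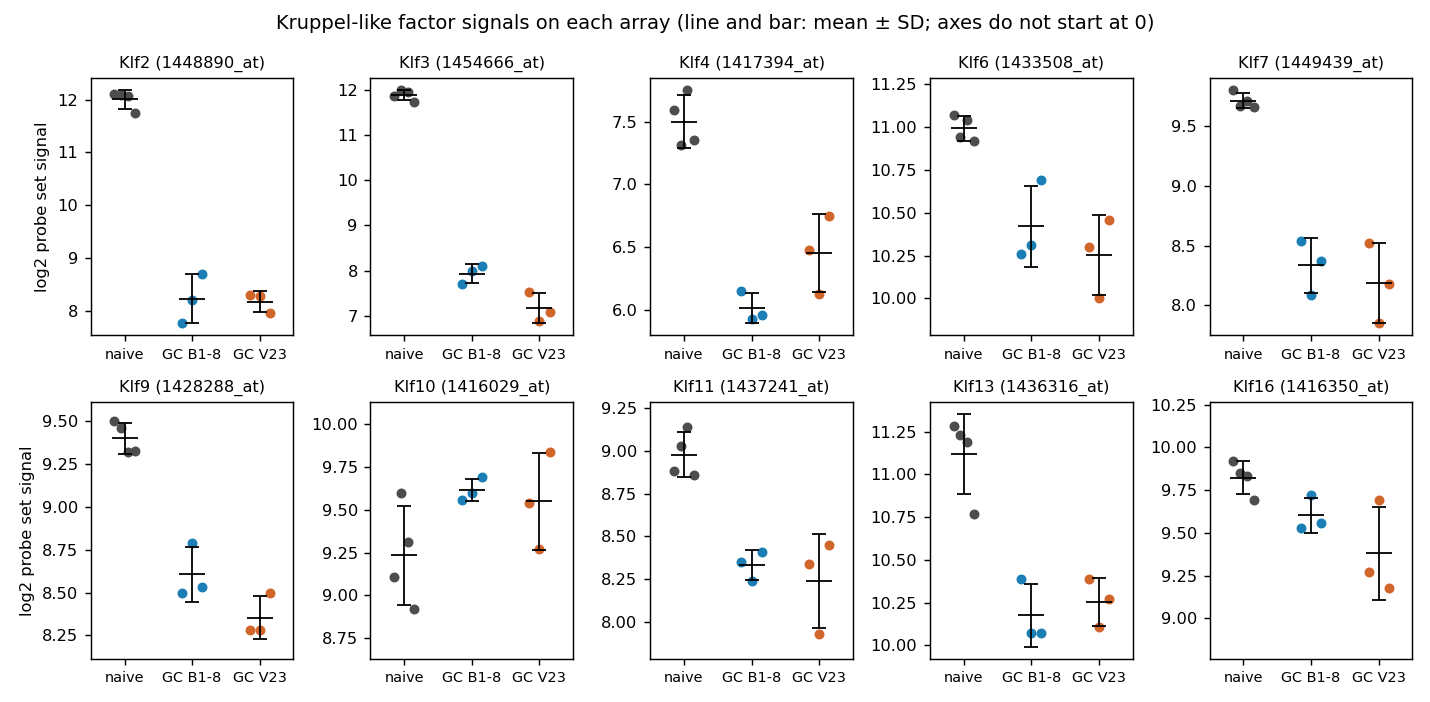
Log2 probe set signal of each Kruppel-like factor on the 10 arrays, with 1 panel per gene; points are arrays, the horizontal line is the group mean and the bar its SD, and the vertical axes do not start at 0. Klf2 and Klf3 drop from about 12 in the 4 naive arrays to between 6.88 and 8.71 in the 6 GC arrays, while the groups overlap for Klf10 and Klf16.

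Among the activating members, Klf2 (1448890_at) read 12.11, 12.09, 12.07 and 11.74 on the 4 naive arrays. In GC B1-8 it read 7.78, 8.22 and 8.71, and in GC V23 8.30, 8.29 and 7.96. The groups were 3.03 log2 units apart at their nearest arrays, and naive replicate 4 stood below the other naive samples. Klf2 changed by −3.77 ± 0.21 in GC B1-8 (limma adjusted p = 1.21e-05) and by −3.82 ± 0.21 in GC V23 (adjusted p = 7.67e-06). The GC signal was 7.22% of the naive one (95% interval 5.43% to 9.60%), and the fall ranked 57 among the 17204 genes counted from the lowest. Without naive replicate 4, the naive sample with the most neutrophil signal, the fall was −3.88. The GC arrays, where neutrophil markers were higher, all stayed in that fit, so the part of neutrophils was not tested.

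Klf4 (1417394_at), one of the factors used to reprogram cells and a brake on B cell division, read 7.59, 7.31, 7.75 and 7.35 on the naive arrays. It read 6.15, 5.93 and 5.96 in GC B1-8 and 6.48, 6.13 and 6.75 in GC V23. Every GC array was below every naive array, and the fall was −1.48 ± 0.17 in GC B1-8 (limma adjusted p = 0.000256) and −1.04 ± 0.17 in GC V23 (adjusted p = 0.00137). Klf4 is also expressed in myeloid cells. Neutrophil markers were higher in GC than in naive samples. Within GC V23 the Klf4 values of 6.48, 6.13 and 6.75 went with neutrophil marker means of 10.98, 10.50 and 11.28. Within GC B1-8 replicate 1 was the highest for both, but replicates 2 and 3 (5.93 and 5.96) had means of 11.14 and 11.04. Among naive arrays, replicate 3 had the highest Klf4 value (7.75) and the lowest neutrophil mean (7.47). Naive replicate 4, with the highest naive mean (9.32), read 7.35 for Klf4. The part of neutrophils in the Klf4 values was not tested.

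Klf7 (1449439_at), a family member studied mostly in neurons and in leukaemia, read 9.80, 9.67, 9.71 and 9.66 on the naive arrays. In GC B1-8 the values were 8.54, 8.09 and 8.37, and in GC V23 8.52, 7.85 and 8.18. The naive arrays were close together and at least 1.11 above all GC arrays. Klf7 changed by −1.38 ± 0.17 in GC B1-8 and by −1.52 ± 0.17 in GC V23 (limma adjusted p = 0.000355 and 0.000157), to 36.6% of the naive signal.

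Klf6 (1433508_at), an early response member that is widely expressed, had the smallest fall of this set. Its naive values were 11.07, 10.94, 11.04 and 10.92, against 10.26, 10.31 and 10.69 in GC B1-8 and 10.30, 10 and 10.46 in GC V23. The nearest arrays of the groups were 0.24 apart. The change was −0.57 ± 0.14 in GC B1-8 (limma adjusted p = 0.0145) and −0.74 ± 0.14 in GC V23 (adjusted p = 0.00365). The GC B1-8 call ended without B1-8 replicate 1 or 2 (adjusted p = 0.0578 and 0.0574) and without naive replicates 2 and 4 together (0.0504).

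Klf3 (1454666_at) is the CtBP-recruiting repressor that B cell development and marginal zone cells depend on. It changed the most of the 10 with the brightest probe set of each gene. The mean of its 7 probe sets changed by −2.80 ± 0.15 for the mean of both GC groups. Klf2, with 1 probe set, changed by −3.79 ± 0.18, so this order sets a mean against a single probe set. With 1454666_at the naive values of Klf3 were 11.86, 12, 11.95 and 11.74, against 7.69, 8.00 and 8.09 in GC B1-8 and 7.53, 6.88 and 7.07 in GC V23. All GC arrays lay at least 3.65 below all naive arrays. Klf3 changed by −3.96 ± 0.17 in GC B1-8 (limma adjusted p = 4.22e-06) and by −4.73 ± 0.17 in GC V23 (adjusted p = 1.37e-06), and its signal in GC cells was 4.92% of the naive one (95% interval 3.92% to 6.17%). Its fall ranked 33 from the lowest among all tested genes.

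The SIN3A-recruiting members moved less than Klf2 and Klf3, and not all fell. Klf9 (1428288_at), a glucocorticoid-induced factor that restrains B cell proliferation, read 9.50, 9.46, 9.32 and 9.33 in naive samples. It read 8.50, 8.79 and 8.53 in GC B1-8 and 8.28, 8.28 and 8.50 in GC V23. The groups did not overlap, and the change was −0.80 ± 0.11 in GC B1-8 and −1.05 ± 0.11 in GC V23 (limma adjusted p = 0.000638 and 0.000117).

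Klf13 (1436316_at), known for its part in the late expression of the chemokine gene Ccl5 in T cells, read 11.28, 11.23, 11.19 and 10.77 in naive samples. The values were 10.39, 10.07 and 10.07 in GC B1-8 and 10.39, 10.11 and 10.27 in GC V23. Naive replicate 4 was again the lowest naive array and was still 0.38 above the highest GC array. Klf13 changed by −0.94 ± 0.15 in GC B1-8 and by −0.86 ± 0.15 in GC V23 (limma adjusted p = 0.00164 and 0.00221); the GC V23 call ended with the mean of its probe sets (−0.57, adjusted p = 0.0879).

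Klf11 (1437241_at), a TGF-beta-inducible repressor, read 8.88, 9.03, 9.14 and 8.86 in naive samples. It read 8.35, 8.24 and 8.41 in GC B1-8 and 8.34, 7.93 and 8.45 in GC V23, with no overlap between GC and naive. The change was −0.64 ± 0.14 in GC B1-8 and −0.74 ± 0.14 in GC V23 (limma adjusted p = 0.00705 and 0.00302).

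Klf10 (1416029_at), first described as a TGF-beta-inducible early gene, went the other way without passing the test. Its naive values were 9.11, 9.60, 9.31 and 8.92, against 9.56, 9.60 and 9.69 in GC B1-8 and 9.54, 9.27 and 9.84 in GC V23. The groups overlapped, with naive replicate 2 inside the GC range. The log2 difference was 0.38 ± 0.18 in GC B1-8 (95% interval −0.04 to 0.80) and 0.31 ± 0.18 in GC V23 (−0.11 to 0.73; limma adjusted p = 0.155 and 0.231). For the mean of both GC groups it was 0.34 ± 0.16 (adjusted p = 0.113), and it passed with quantile normalization (0.53, adjusted p = 0.0289) and without naive replicate 2 (0.47, adjusted p = 0.0375).

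Klf16 (1416350_at), a repressor of promoters with GC boxes, read 9.92, 9.85, 9.83 and 9.69 in naive samples. It read 9.53, 9.72 and 9.56 in GC B1-8 and 9.27, 9.69 and 9.18 in GC V23 and the groups overlapped. The difference was −0.21 ± 0.14 in GC B1-8 (limma adjusted p = 0.269) and −0.44 ± 0.14 in GC V23 (adjusted p = 0.0319). The GC V23 call held in 10 of 19 alternative analyses and the call for the mean of both groups (−0.33 ± 0.11, adjusted p = 0.0484) in 3 of 18; it ended without 9 of the 10 arrays when each was left out in turn (adjusted p = 0.051 to 0.123), all but V23 replicate 2.

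**Figure D2:**
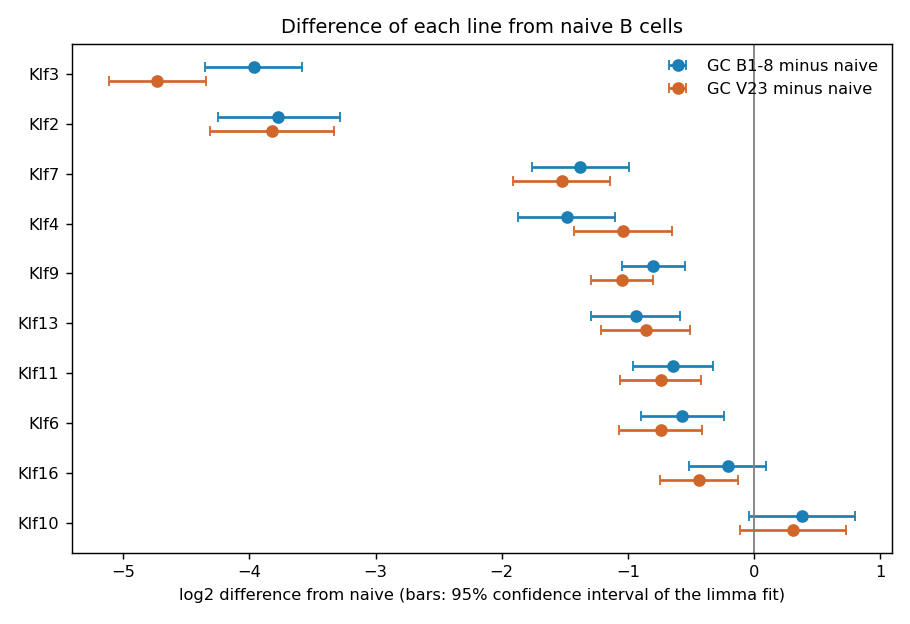
Log2 difference of GC B1-8 and of GC V23 from naive B cells for each Kruppel-like factor; points are limma estimates and bars their 95% confidence intervals. Klf3 and Klf2 lie at −3.77 or lower in both lines, and 6 more genes lie between −1.52 and −0.57. Both intervals of Klf10 cross 0, as does that of Klf16 in GC B1-8 (−0.52 to 0.09).

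The lines, which carry different heavy chain transgenes, were then compared with each other. Their difference in affinity for NP is background knowledge and was not measured here. Of the 10 genes, 0 differed between GC B1-8 and GC V23 with limma (0.0233% of all tested genes did, 0.0174% lower and 0.00581% higher in GC B1-8), and 2 had an unadjusted p under 0.05. Klf3 stood at 0.77 ± 0.18 for GC B1-8 minus GC V23 (95% interval 0.36 to 1.18, adjusted p = 0.37), and the lines' arrays did not overlap, with 7.69 as the lowest B1-8 value and 7.53 as the highest V23 value. The mean of its probe sets gave 0.05 for the same difference. Klf4 stood at −0.44 ± 0.18 (95% interval −0.86 to −0.03, adjusted p = 0.627), with overlapping arrays. For Klf2 the difference was 0.05 ± 0.23, with an interval from −0.47 to 0.57. The other 7 genes differed by −0.08 to 0.25, with intervals that all include 0.

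The other probe sets were examined next, since Klf3 and Klf9 have 7 each, Klf6 has 5, Klf7 4, Klf13 3 and Klf4 2, while Klf2, Klf10, Klf11 and Klf16 have 1. Over all 32 probe sets of the 10 genes, 22 were lower in the mean of both GC groups (20.7% of 32240 tested probe sets were), 10 did not pass and 0 were higher with limma, where probe sets of 1 gene share transcripts and are not independent. Klf3 was lower with 6 of 7 probe sets, but by sizes from −0.80 ± 0.20 (1431630_a_at) to −7.24 ± 0.34 (1421604_a_at). The 1421604_a_at probe set read between 9.09 and 9.19 on the naive arrays and between 1.32 and 3.48 on the GC arrays. Signals below log2 4 carry little order, and with such values raised to 4 the difference of this probe set was −5.16. The exception, 1458487_at, was at 1.13 ± 0.48 (adjusted p = 0.0936) with low naive signals of 3.78 to 6.39.

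Both Klf4 probe sets fell, 3 of 4 for Klf7 and 2 of 3 for Klf13, whose remaining probe set stayed near log2 4 in all groups. Klf6 fell with 3 of 5 probe sets, and the other 2 were at −0.34 ± 0.15 and −0.47 ± 0.24 (adjusted p = 0.103 and 0.159). Of the Klf9 probe sets 4 of 7 fell, by −0.74 to −2.10, and 1436952_at was at 0.72 ± 0.31 (adjusted p = 0.101). In the fit over probe sets Klf16 no longer passed (adjusted p = 0.0572).

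**Figure D3:**
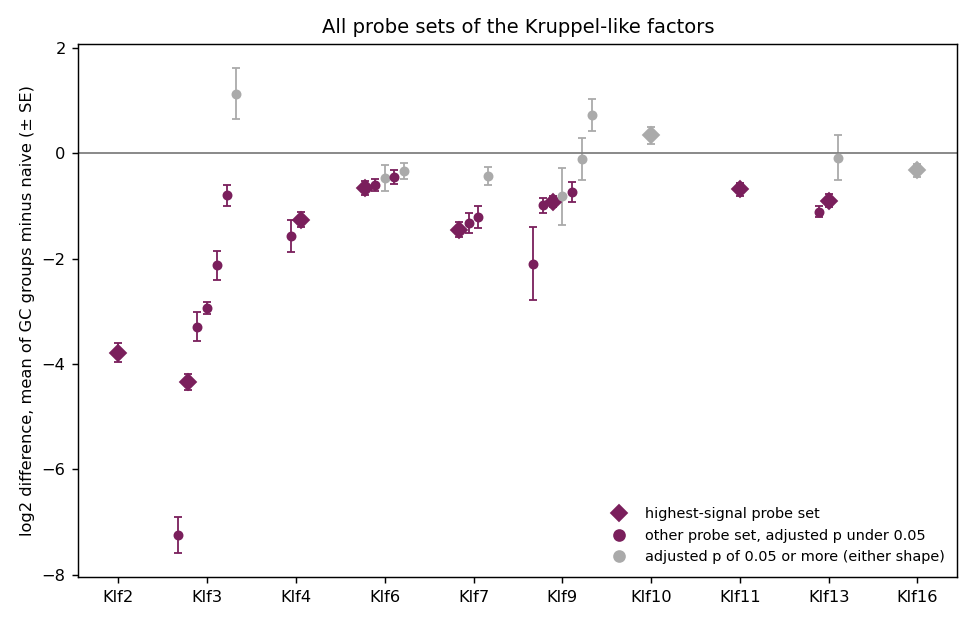
Log2 difference between the mean of both GC groups and naive B cells for all 32 probe sets of the 10 Kruppel-like factors, with SE bars; diamonds are the probe sets with the highest signal and grey marks an adjusted p of 0.05 or more. Klf3 probe sets spread from −7.24 to 1.13, whereas those of Klf6 stay between −0.66 and −0.34.

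Of 7 further Kruppel-like factor genes 5 were tested, 0 fell with limma, at an unadjusted p under 0.05 too, and 1 rose, where 21.0% of all tested genes fell and 20.5% rose. The one was Klf14 (0.99 ± 0.29, adjusted p = 0.0249), from 6.59 ± 0.60 in naive samples to 7.56 ± 0.30 in GC B1-8 and 7.59 ± 0.46 in GC V23. Its call ended without naive replicate 1, B1-8 replicate 3, V23 replicate 1 or V23 replicate 2 (adjusted p = 0.0522 to 0.0552), and up to 3 of the 5 rose under other settings. Klf5 (−0.03 ± 0.25) and Klf12 (0.34 ± 0.17) did not pass; against naive, Klf12 rose in GC B1-8 by 0.75 ± 0.20 (adjusted p = 0.0193) and Klf17 in GC V23 by 0.55 ± 0.18 (adjusted p = 0.0398). Of 7 tested Sp factors, which share the finger domain and bind GC boxes, 1 rose (20.5% of all tested genes did), Sp3 by 0.38 ± 0.07 (adjusted p = 0.00205).

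Upstream of Klf2, 3 of 9 genes fell and 2 rose, close to the 21.0% and 20.5% of all tested genes, with a median of −0.17. Foxo3, a forkhead factor restrained by PI3K signals, went from 10.82 ± 0.13 in naive to 9.36 ± 0.13 in GC B1-8 and 8.93 ± 0.26 in GC V23 samples, a change of −1.67 ± 0.12 (limma adjusted p = 1.3e-05), and averaging its probe sets gave −0.99 ± 0.23 (adjusted p = 0.00899). Foxo1, its relative, which acts upstream of Klf2, was at 0.18 ± 0.07 (adjusted p = 0.0858; 0.0286 with an intensity trend and robust moderation). Mef2a rose by 0.56 ± 0.07, whereas Mef2d (−0.46 ± 0.08) and the kinase gene Map3k2 (−1.01 ± 0.13) fell; both of these falls ended with the mean of the genes' probe sets (−0.10 and −0.30, adjusted p = 0.433 and 0.174).

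Of 9 genes described as linked to Klf2 in lymphocytes, 7 fell (21.0% of all tested genes did). The median of the 9 was −1.05, and the other 2 did not pass. The list was not sorted by whether Klf2 raises or lowers each gene, so the count does not show movement with Klf2. S1pr1, the egress receptor, went from 11.70 ± 0.25 in naive to 8.71 ± 0.13 in GC B1-8 and 8.59 ± 0.21 in GC V23 samples, which is 12.1% of the naive signal. Itgb7, an integrin chain of gut homing, fell by 2.89 ± 0.15 on the log2 scale and S1pr4, another sphingosine phosphate receptor, by 1.26 ± 0.11. Cr2, which encodes the complement receptor CD21, fell by 0.90 ± 0.08. Expression alone does not show that these genes respond to Klf2 in these cells.

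Corepressor genes were mostly higher in GC cells: 7 of 9 rose (20.5% of all tested genes did), with a median of 0.43, and none of the other 2 passed. Sap30, a SIN3A complex subunit, rose by 1.69 ± 0.15 (limma adjusted p = 3.58e-05), from 8.90 ± 0.30 to 10.51 ± 0.20 in GC B1-8 and 10.66 ± 0.10 in GC V23. The deacetylases Hdac1 and Hdac3 rose by 0.72 ± 0.10 and 0.52 ± 0.08, and the CoREST subunit Rcor1 by 0.52 ± 0.08. Of 4 coactivator genes 1 fell and 1 rose, against 21.0% and 20.5% of all tested genes: Crebbp fell (−0.37 ± 0.09) and Wdr5 rose (0.32 ± 0.08); Crebbp was at 0.26 with the mean of its probe sets (adjusted p = 0.34), its call ended with median centring (0.0839), and that of Wdr5 ended without naive replicates 2 and 4 (0.0767).

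Of 7 genes for ubiquitin enzymes that act on Kruppel-like factors, 2 fell and 1 rose (21.0% and 20.5% of all tested genes did). The one that rose was Fbxw7, the substrate receptor that targets KLF2 and KLF5 proteins for degradation, from 10.17 ± 0.08 in naive to 11.62 ± 0.08 in GC B1-8 and 11.57 ± 0.10 in GC V23 samples (1.42 ± 0.08, limma adjusted p = 3.89e-06). Smurf1 fell (−0.53 ± 0.09), a call that ended with the mean of its probe sets (adjusted p = 0.0797). Wwp1 also passed (−0.25 ± 0.07, adjusted p = 0.0269), but its direction turned with quantile normalization (0.04) and its call ended in 11 of 18 alternatives. Of 7 TGF-beta pathway genes, the circuit that induces Klf10 and Klf11, 3 fell and 2 rose, against 21.0% and 20.5% of all tested genes: the SMAD partner Smad4 fell by 0.73 ± 0.09, and Tgfbr1 rose by 0.41 ± 0.08. The changes of the receptor gene Tgfbr2 (−0.81 ± 0.08) and of Smad3 (−1.29 ± 0.19) were lost with the mean of their probe sets (0.07 and −0.04, adjusted p = 0.764 and 0.929), as was that of Tgfbr1 (0.31, adjusted p = 0.0858).

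**Figure D4:**
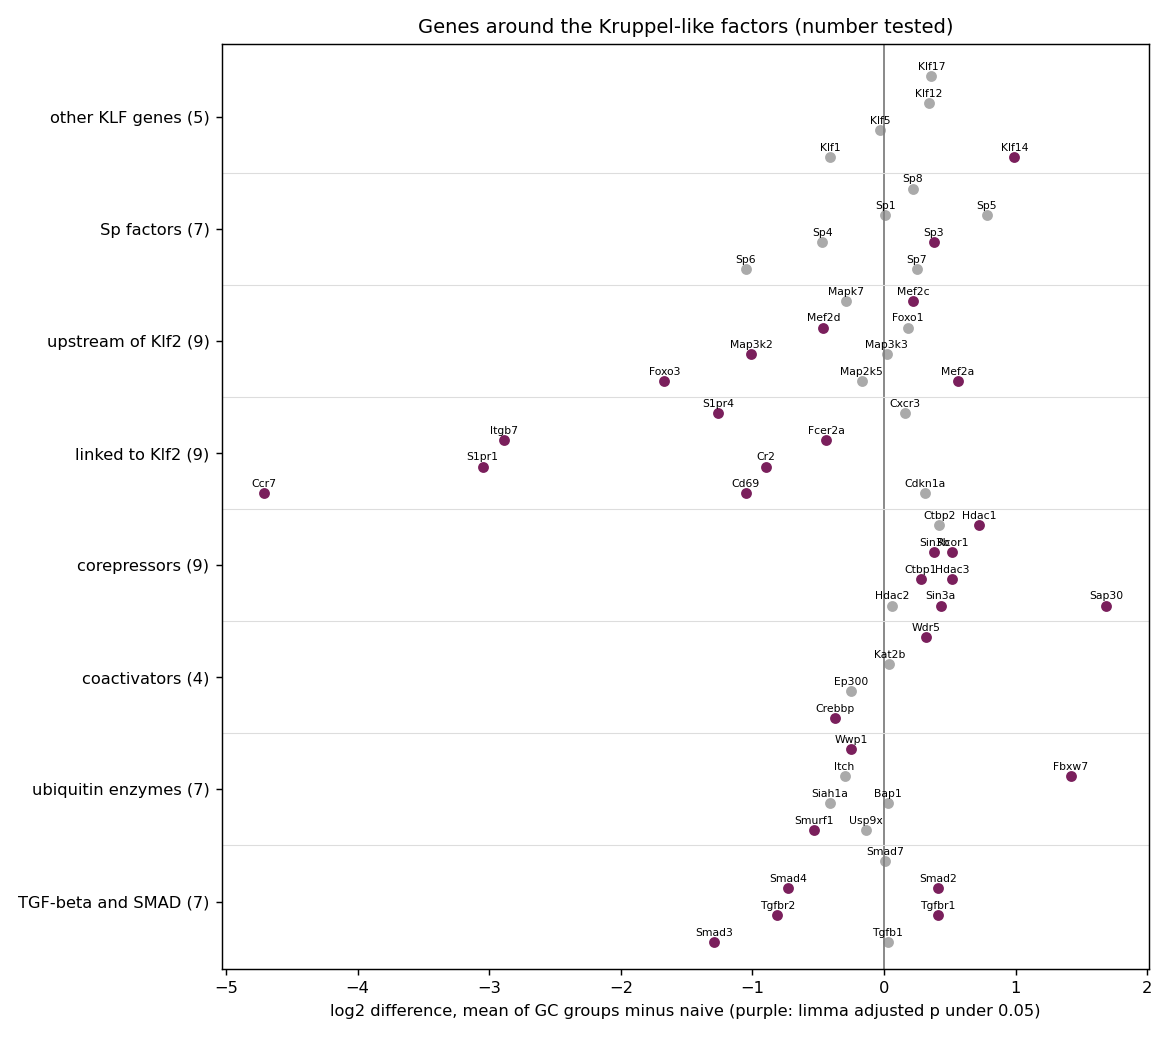
Log2 difference between the mean of both GC groups and naive B cells for the tested genes of 8 lists around the Kruppel-like factors; each point is a gene and purple marks a limma adjusted p under 0.05. Genes linked to Klf2 lie mostly left of 0 and 7 of 9 corepressor genes are purple to its right.

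Finally, the genes most like Klf3, the member with the largest difference by brightest probe set, were ranked by Pearson correlation. Over the 10 arrays Gimap4 (r = 0.998), Trim21 (0.997), Ier5 (0.997), Itm2b (0.997) and Rasgef1b (0.997) came first. These arrays form a naive and a GC cluster that differ in most members, and 1816 of 16529 genes had r above 0.9. Klf2 correlated with Klf3 at 0.986 over the 10 arrays but at 0.358 within the 6 GC arrays, where Klf4 was at −0.613 and Klf9 at 0.638. Within the 6 GC arrays Mdfic, Rlf, Plxna2, Herpud2 and Gm34006 were nearest (r between 0.989 and 0.995), and none of them was among the nearest 5 over the 10 arrays.

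The naive arrays also differed in a shared way. Naive replicate 4 gave the lowest naive value for 8 of the 10 genes, the exceptions being Klf4 and Klf9. Besides neutrophils, it had the highest naive marker means for T cells (7.90), macrophages and monocytes (8.03), and erythroid cells and platelets (7.23). The same held for endothelial and stromal cells (7.37) and plasma cells (10.01). The summed unlogged signal of the 10 neutrophil markers ranged from 2929 to 14283 in naive, 60423 to 62516 in GC B1-8 and 38372 to 57195 in GC V23 samples, none of them lying below log2 4 on all arrays of a group. T cell markers, of cells that express Klf2 strongly, fell in 2 of 9 cases (21.0% of all tested genes did), with summed signals of 1635 to 2628 in naive, 1292 to 1863 in GC B1-8 and 1000 to 1467 in GC V23 samples. Erythroid and platelet markers fell in 3 of 5 cases and macrophage and monocyte markers in 2 of 10. Of 5 plasma cell markers 1 fell and 2 rose, where 20.5% of all tested genes rose. Their summed signals were 10857 to 15584 in naive, 21731 to 24324 in GC B1-8 and 22299 to 24563 in GC V23 samples. Of 6 endothelial and stromal markers 1 fell and 1 rose. Handling stress genes fell in 5 of 8 cases (against the same 21.0%), with a mean of 8.75 in naive replicate 4, 9.56 to 9.91 in the other naive samples and 8.30 to 8.62 in GC samples. The part of these cells and of handling in the Kruppel-like factor values was not tested; without naive replicates 2 and 4, the naive arrays with the most GC marker signal, the members lower in GC numbered 7 in B1-8, 8 in V23 and 8 in the mean of both.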

How the data were processed

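RNA of 10 sorted splenic B cell samples was measured on Affymetrix Mouse 430 2.0 arrays. The authors deposited log2 probe set signals; the submitters' processing notes name GCRMA without a version, but unlogged signals average 500 on every array once 2% is trimmed from both ends, and no floor is seen, so the summary method is not settled. Values (−4.29 to 14.9) were used as deposited. Of 45101 probe sets 34958 carry 1 symbol, 932 several and 9211 none in GEO's platform annotation. Genes above log2 4 on at least 3 arrays were tested with limma 3.58.1 (R 4.3.3): group means over 10 arrays, empirical Bayes, two-sided, Benjamini-Hochberg over 17204 genes, threshold 0.05. The members, gene lists and tests were chosen with earlier results of these data known. All 10 members are named; in other lists up to 4 genes passing with the smallest p for GC (both lines averaged) against naive, and any that did not pass, with values. Likeness used Pearson's r without _x_at probe sets. The fit was tested on simulated data. Arrays give no counts, so their number limits the precision. Alternatives covered the filter, probe set mean, quantile normalization, centring, a floor, moderation, groups fitted alone, a replicate block and arrays left out. Promoter sequences are RefSeq's (GRCm38.p6). Figures used matplotlib 3.10.9 on Python 3.11.15. Some genes of the lists were not analysed here.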

Additional observations from a re-analysis of the deposited data

Results flagged for a closer look

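Naive replicate 4 read 11.74 for Klf2, while the other 3 naive arrays lay between 12.07 and 12.11. Its gap to the nearest array was 0.90 of the range, above Dixon's critical value of 0.829 for 4 samples; this was 1 of 10 naive groups checked, and chance alone marks about 5% of groups. The same array had the highest naive marker means for neutrophils and several other cell types, and the lowest naive stress gene mean. The fall of Klf2 was −3.88 without it, in a fit that kept all GC arrays. The part of these cells and of handling was not tested.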

How the results depend on the processing

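Of 560 alternative values for the members against naive cells, none changed direction, and Klf2, Klf3, Klf4, Klf7, Klf9 and Klf11 passed in all of theirs in each line. The count of higher members in the mean of both GC groups went from 0 to 1 with quantile normalization (Klf10) and ranged from 0 to 1 over the arrays left out in turn. Between the lines 8 of 190 values turned sign, all of them not called: Klf2 (−0.03 with quantile normalization, −0.01 with median centring, −0.18 to 0.28 with arrays left out in turn), Klf7 (−0.02 to 0.32), Klf10 (−0.07 to 0.21) and Klf11 (−0.06 to 0.20) with arrays left out, and Klf9 (−0.01 with the mean of its probe sets). Among 24 named genes of the other lists, Crebbp (0.26) and Tgfbr2 (0.07) reversed with the mean of their probe sets and Wwp1 (0.04) with quantile normalization; the cause was not tested. Replicate numbers are shared by the groups, but same-numbered arrays did not deviate together (r from −0.019 to 0.072 over 9 pairs); with the replicate block 8 of 10 members fell in the mean of both GC groups, Klf16 being lost (−0.37, adjusted p = 0.0555). Leaving out naive replicates 2 and 4 was chosen after the data were seen. Signals below log2 4 and 3 or 4 arrays a group limit what can be detected.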
